A study of Mus musculus with 2 samples.

Results

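The regions described here are the DNase-seq peaks of the 3 immunoglobulin (Ig) loci in mouse spleen. Members were all peaks that overlap the heavy-chain locus Igh (chr12:113254830-116000461), the kappa light-chain locus Igk (chr6:67555497-70726966) or the lambda light-chain locus Igl (chr16:19061618-19260859) in mm10, each widened by 50 kb on both sides. This gave 324 of 79246 peaks in animal 1 and 261 of 77231 peaks in animal 2, a mean of 292.5 ± 44.5 (SD, n = 2). Igh held 163 and 158 of them, Igk 131 and 81, and Igl 30 and 22.

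The study measured where DNase I cuts chromatin in whole spleen from 2 males at an age of 2 months. Both were B6CASTF1/J mice, F1 hybrids of C57BL/6J and CAST/EiJ, so a nucleus carries the Ig haplotypes of both strains while all reads were placed on mm10; the effect of this on the peaks was not tested. There was no treatment, no altered allele and no other condition: the animals form 1 group, and each value is given for animal 1 and then animal 2. The labels number the mice and the biological replicates apart but list 1 donor identifier for both, so the spread between them may in part be technical. No test was made, since 2 animals of 1 group allow no comparison of conditions, and a mean ± SD describes these animals only.

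An Ig locus holds variable (V), diversity (D, in Igh only), joining (J) and constant (C) segments, which a developing B cell joins by V(D)J recombination into 1 working gene. The recombinase cuts at a recombination signal sequence beside each V, D and J segment, and V promoters carry an octamer bound by the factors Oct-1 and Oct-2. Enhancers lie in the intron between J and C and downstream of the constant segments, and CTCF, a protein that shapes chromatin loops, binds many sites among the heavy-chain V segments. The spleen holds mostly mature B cells, T cells and myeloid cells. In such bulk tissue, a lower peak from fewer cells with an open site and from less cutting per cell cannot be told apart.

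The highest peak of each of 4 windows in which Ig enhancers are known to lie is shown by its sequence, whether or not that peak is the enhancer, read from GRCm38.p6, the assembly that mm10 is made from. Capitals mark the motifs searched, on either strand: the octamer ATGCAAAT, the E-box CAGGTG, the NF-kappaB site GGACTTTCC, the PU.1 core GAGGAA, the ETS-IRF composite GGAANNGAA, the recombination signal heptamer CACAGTG and the CTCF core consensus. PU.1 and GGAA matches can overlap. For shares over many peaks, motifs were counted in the 150 bp around the midpoint of each peak. Motifs of a single site in a window between segments were searched in its whole peak, the strongest where it held several. A match describes letters only.
Ighm to Ighj4 peak, chr12:113427401-113427640, minus strand, with 2 E-boxes, an ETS-IRF composite and an octamer: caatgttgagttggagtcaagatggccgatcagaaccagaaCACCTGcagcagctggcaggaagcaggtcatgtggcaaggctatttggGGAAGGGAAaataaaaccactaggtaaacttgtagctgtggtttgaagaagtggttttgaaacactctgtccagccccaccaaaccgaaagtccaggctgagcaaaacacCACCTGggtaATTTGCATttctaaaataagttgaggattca
Igkj5 to Igkc peak, chr6:70725721-70725920, plus strand, with an NF-kappaB site, a PU.1 core and an E-box: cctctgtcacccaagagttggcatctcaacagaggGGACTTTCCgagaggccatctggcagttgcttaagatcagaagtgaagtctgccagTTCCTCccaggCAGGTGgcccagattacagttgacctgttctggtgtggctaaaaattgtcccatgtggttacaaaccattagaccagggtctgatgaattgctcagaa
Highest peak downstream of Igkc, chr6:70768901-70769060, plus strand, with the CTCF consensus: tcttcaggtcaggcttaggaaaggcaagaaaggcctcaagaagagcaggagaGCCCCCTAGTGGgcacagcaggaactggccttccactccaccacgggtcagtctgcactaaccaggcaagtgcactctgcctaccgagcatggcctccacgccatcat
Highest peak downstream of Igha, chr12:113222121-113222280, minus strand, with none of these motifs: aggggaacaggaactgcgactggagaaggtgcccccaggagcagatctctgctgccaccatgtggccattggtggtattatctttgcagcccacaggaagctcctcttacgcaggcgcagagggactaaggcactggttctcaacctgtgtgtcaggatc

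The 3 ETS-IRF composites in peaks found in both animals downstream of the light-chain constant segments are set side by side. The kappa 3′ enhancer and the lambda enhancers are known to bind PU.1 together with IRF4 at such a site. A further match, not shown, lay downstream of Igkc in a peak of animal 1 only, chr6:70730921-70731200, 0.387 high. Capitals mark GGAANNGAA. The stretches were picked after the motif counts were seen.
Downstream of Igkc, chr6:70735686-70735736, plus strand: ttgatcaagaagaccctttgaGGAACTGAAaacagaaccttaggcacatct
Downstream of Iglc1, chr16:19027268-19027318, minus strand: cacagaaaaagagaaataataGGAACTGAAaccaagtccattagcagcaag
Downstream of Iglc4, chr16:19179392-19179442, minus strand: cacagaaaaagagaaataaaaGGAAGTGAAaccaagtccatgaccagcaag
Base by base, the Iglc1 and Iglc4 stretches matched at 47 of 51 positions, and the Igkc stretch matched them at 24 and 22.

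Several of the motifs recurred in peaks at V segments. Shown here are the octamer upstream of Igk V segments and the CTCF consensus at Igh V segments. The octamers shown are the 3 that overlapped a footprint, a short protected stretch inside a peak, by 1 bp or more in both animals. An Igh octamer that lay in no peak is shown for comparison. Capitals mark ATGCAAAT or its reverse complement, and each line runs along the direction of transcription.
Igkv2-112, chr6:68219854-68219903: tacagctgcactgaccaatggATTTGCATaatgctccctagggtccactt
Igkv2-109, chr6:68302311-68302360: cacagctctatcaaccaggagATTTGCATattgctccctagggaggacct
Igkv15-103, chr6:68437348-68437397: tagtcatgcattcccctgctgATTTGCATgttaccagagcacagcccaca
Ighv11-1, chr12:113982421-113982470, no peak: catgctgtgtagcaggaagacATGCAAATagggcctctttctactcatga
The octamer read in the same orientation in every segment of a locus that had one within 300 bp upstream. It ran along transcription in 90 of 90 Igh V genes and was inverted in 73 of 73 Igk and 3 of 3 Igl V genes.

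The CTCF matches with the 3 highest mean peak heights on each side of the Igh V segments, chosen after their values were seen, are shown along the direction of transcription, all from the minus strand. Capitals mark the consensus.
Ighv1-65, upstream, chr12:115533300-115533339: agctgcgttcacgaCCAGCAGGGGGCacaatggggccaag
Ighv1-86, upstream, chr12:116011042-116011081: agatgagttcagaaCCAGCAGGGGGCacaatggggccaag
Ighv1-53, upstream, chr12:115159630-115159669: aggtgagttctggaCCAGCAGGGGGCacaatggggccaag
Ighv4-2, past the end, chr12:114013058-114013097: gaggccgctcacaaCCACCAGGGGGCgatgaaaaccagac
Ighv5-2, past the end, chr12:113578420-113578459: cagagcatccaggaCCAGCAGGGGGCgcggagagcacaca
Ighv5-17, past the end, chr12:113859065-113859104: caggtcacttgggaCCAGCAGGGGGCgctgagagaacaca

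The loci differed in how densely they held peaks. Igh had 5.73 and 5.55 peaks per 100 kb, Igk 4.004 and 2.48, and Igl 10.0 and 7.35, against 2.91 and 2.83 over the genome. The Ig peaks were low: their median height, the deposited density of DNase cuts at the peak in a unit the files do not name, was 0.523 and 0.543, against 0.888 and 1.05 over all peaks. Peaks nearest to a V segment had a median height of 0.437 (n = 214) and 0.516 (n = 169), those nearest to a D or J segment 0.817 (n = 22) and 0.978 (n = 16), and those nearest to a constant segment 0.863 (n = 88) and 0.648 (n = 76). Constant-region peaks were thus 1.98 and 1.26 times as high as V-region peaks, a mean ratio of 1.62 ± 0.508 (SD, n = 2). In the loci without the 50 kb flanks the ratio was 1.81 in animal 1 and 0.452 in animal 2, so its direction in animal 2 rested on the flanks. Merged over both animals the peaks formed 392 sites. By the midpoint of each site's strongest peak, 293 were intergenic in GENCODE M21, 60 lay in an exon or untranslated region and 39 in an intron. Repeated sequence was common: 78.3% and 81.0% of the 32-base words in Ig peaks occurred once in the genome, against 97% and 96.7% over all peaks, and its part in which peaks were called was not tested.

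The tissue label was checked against cell markers. In both animals all 7 B cell markers had a peak within 1 kb of a start, at a median height of 9.36 and 8.96, and 5 of 6 T cell markers did, Cd4 being the one without. Of 5 plasma cell markers, Xbp1, Prdm1 and Sdc1 had one and Jchain and Tnfrsf17 had none, and 0 of 4 genes of other tissues had one. Among the genes that build Ig genes, Rag1 and Rag2, the recombinase, and Dntt, which adds bases at the joins, were without a promoter peak in both animals. All 16 factors known to act at Ig loci had one, among them Pax5 at 11.4 and 13, Pou2f2, which encodes Oct-2, at 8.34 and 9.44, and Ctcf at 7.15 and 7.26.

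The highest peaks between segments lay downstream of Igha, the last heavy-chain constant gene, where the 3′ regulatory region of Igh is known to drive class switching and high expression. These 50 kb held 19 peaks in animal 1 and 13 in animal 2, and 12 sites had a peak in both. The strongest, chr12:113222121-113222320, had a height of 10.4 and 15.4, a mean of 12.9 ± 3.52 (SD, n = 2), and held 5 and 2 footprints. Its neighbour at chr12:113222861-113223060 stood at 7.18 and 7.20. The site at chr12:113228281-113228520, which holds an octamer and an E-box, stood at 7.38 and 6.14. These 3 sites lay 38035, 37275 and 31835 bp from the start of Igha, and all 12 shared sites were intergenic. Of the other 9 shared sites the lowest, at chr12:113253841-113254059, stood at 0.917 and 0.957, and the highest, at chr12:113222381-113222580, at 6.65 and 6.49. The CTCF consensus was in the sites at chr12:113219961-113220160, with heights of 3.14 and 3.94, and chr12:113221361-113221520, with 3.48 and 4.96. An octamer and an E-box occurred together also at chr12:113244721-113245060, with 2.64 and 2.88. The 7 sites of animal 1 alone were at most 1.02 high, and the 1 site of animal 2 alone, chr12:113217361-113217560, was 2.16 high and the highest Igh site found in 1 animal only.

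**Figure D1:**
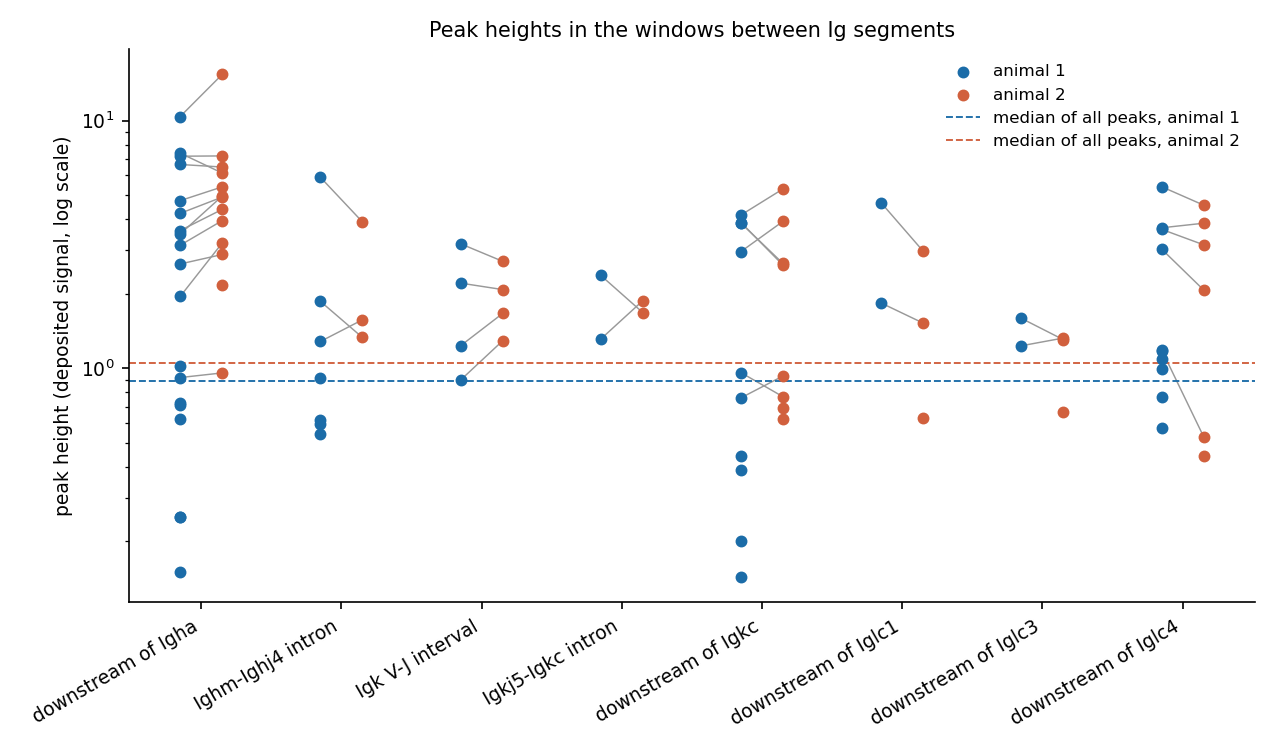
Heights of the peaks in 8 windows between Ig segments in animal 1 and animal 2 on a log axis, with grey lines joining sites found in both and dashed lines at the median height of all peaks of each animal. The site downstream of Igha at 10.4 and 15.4 is the highest, and most joined sites stand above the dashed lines.

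The intron between J and C of Igh, where the heavy-chain intronic enhancer Eμ is known to lie, held 9 and 3 peaks, 3 sites of them shared. It is the stretch from Ighm to Ighj4, intergenic in the annotation because the genome there is not rearranged. The highest site, chr12:113427401-113427640, shown above, was at 5.90 and 3.90, a mean of 4.90 ± 1.42 (SD, n = 2), with 6 and 3 footprints. The others stood at 1.86 and 1.33 (chr12:113426681-113426960) and at 1.28 and 1.57 (chr12:113422761-113424280). The same intron of Igk, between Igkj5 and Igkc, held 2 peaks in each animal, both shared and both inside an intron of the lincRNA Gm30211. The site at chr6:70725721-70725920, which holds the NF-kappaB site for which the kappa intronic enhancer is known, was at 2.37 and 1.68, a mean of 2.02 ± 0.491 (SD, n = 2). Its neighbour at chr6:70724881-70725040 was at 1.31 and 1.87, so the order of these sites differed between the animals. The NF-kappaB letters occurred in 0.341% and 0.284% of all peaks, and in 16 places of the widened Igk locus, of which 1 lay in a peak in each animal.

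Downstream of Igkc, where the kappa 3′ enhancers are known to lie, there were 10 and 8 peaks and 6 shared sites. The site at chr6:70735561-70735860, 9266 bp from the start of Igkc in an intron of Gm30211, held the ETS-IRF composite and 2 E-boxes and stood at 3.88 and 2.61. The composite's letters occurred in 5.95% and 5.19% of all peaks and in 2.78% and 2.68% of Ig peaks. The intergenic site at chr6:70743961-70744280 stood at 3.85 and 2.65. These neighbours were near each other in height in both animals and both higher in animal 1. Farther out, the order turned: the intergenic site at chr6:70752561-70752720 was at 2.96 and 3.92, and that at chr6:70768861-70769060, in an intron of Rpia and with the CTCF consensus, was at 4.15 and 5.30, a mean of 4.73 ± 0.807 (SD, n = 2). The remaining shared sites, both intergenic, were lower, at 0.960 and 0.767 (chr6:70764661-70764840) and at 0.759 and 0.930 (chr6:70765206-70765400).

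In the interval between the Igk V and J segments, which in Igk is known to hold elements that steer V choice, all 4 peaks of each animal were shared and intergenic. They stood at 3.18 and 2.70 (chr6:70709381-70709580), 2.21 and 2.08 (chr6:70714341-70714540), 1.23 and 1.66 (chr6:70709781-70709940), and 0.895 and 1.29 (chr6:70716981-70717220). None of the 4 held the CTCF consensus in the 150 bp searched. Igh differed: its interval between the last D and the first V segment of the annotation, 44.9 kb long, held 0 peaks in both animals, with 58.2% of its 32-base words occurring once in the genome. The nearest peaks on the D side lay upstream of Ighd1-1, where a control region between V and D is known. There the site at chr12:113487801-113487980, 5699 bp upstream of Ighd1-1, was at 2.06 and 2.30, and the site at chr12:113485181-113485380 at 0.960 and 0.577.

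The lambda locus, small and with only 3 V segments, had its highest site downstream of Iglc4 and its next highest by mean downstream of Iglc1. Of 10 and 6 peaks there, 5 sites were shared, all intergenic. The highest, chr16:19146701-19146900, with the CTCF consensus and an E-box, was at 5.41 and 4.56, a mean of 4.98 ± 0.603 (SD, n = 2), and its neighbour at chr16:19146301-19146520 was at 3.69 and 3.85. The site with the ETS-IRF composite, chr16:19179401-19179500, 15871 bp from the start of Iglc4, was at 3.64 and 3.15. The others stood at 3.03 and 2.07 (chr16:19152521-19152840) and at 1.19 and 0.530 (chr16:19185781-19185980). The highest Igl site of 1 animal only, chr16:19153141-19153340, was 1.17 high in animal 1. Downstream of Iglc1 the composite recurred at chr16:19027121-19027479, 34840 bp from the start of Iglc1, at 1.83 and 1.52 in an intergenic stretch. The site nearer to Iglc1, chr16:19052881-19053120 in an intron of the antisense transcript 2010309G21Rik, was at 4.66 and 2.97, a mean of 3.81 ± 1.19 (SD, n = 2). Downstream of Iglc3 the sites were at 1.59 and 1.30 (chr16:19063173-19063360, at Iglj1) and at 1.23 and 1.32 (chr16:19064509-19064680). Downstream of Iglc2 animal 1 had 1 peak of 0.466 and animal 2 had 0.

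The constant genes themselves ranged from many peaks to none. Igha had a single site in an intron, chr12:113257361-113257560, at 3.40 and 5.98, a mean of 4.69 ± 1.82 (SD, n = 2). Ighe and Ighg2c, with the stretch up to the next gene upstream, had 0 peaks in both animals. Ighg2b and the pseudogene Gm37944 each had 1 shared intergenic site upstream, at 1.22 and 0.794 for Ighg2b and at 1.74 and 1.85 for Gm37944. Upstream of Ighg3, whose interval held 4 and 5 peaks, the shared sites were intergenic and stood at 1.98 and 1.17 (chr12:113366501-113366700) and at 0.845 and 0.597 (chr12:113362441-113362640). Of the light chains, Igkc had an exonic peak of 1.26 in animal 1 (chr6:70726581-70726710), the highest Igk site of 1 animal only, and none in animal 2. Iglc1 had an exonic site at 1.28 and 1.00, and Iglc3 and Iglc4 had no peak within 1 kb of their start. Iglc2 had a site at its start at 3.16 and 2.08 and an exonic one at 1.19 and 0.665.

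Ighd, Ighm and Ighg1 set the animals apart, a pattern noticed after the data were seen. From Ighd to Ighj1 (chr12:113406604-113429833, 23.2 kb), the genes of the receptor isotypes IgD and IgM with their J segments, animal 1 had 39 peaks with a median height of 0.544 and a median width of 320 bp, and animal 2 had 4 peaks. Of these, 20 and 0 lay from Ighd to Ighm and 17 and 4 from Ighm to Ighj4, among them a shared exonic site of Ighm (chr12:113422201-113422720) at 1.46 and 1.41. The deposited cut-rate file lists intervals with a false discovery rate (FDR) under 0.05, and these covered 76.3% of the stretch, taken in whole bins of 1 kb, in animal 1 and 3.97% in animal 2. From Ighg1 to Ighg3 (chr12:113325240-113356223, 31 kb), which starts with the gene of the isotype IgG1, animal 2 had 30 peaks between 0.0951 and 0.326 high, and animal 1 had 0 peaks and 0 listed bases. Listed intervals covered 26.5% of that stretch in animal 2. The 2 stretches went opposite ways between the animals, and neither held a shared site apart from the 4 of animal 2 in the stretch from Ighd to Ighj1.

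Over the genome in bins of 5 kb, the bins with 93.3%, 100% and 90.4% of bases listed in animal 1 between Ighd and Ighj1 had 0%, 7.86% and 9.62% in animal 2. They ranked 1, 2 and 4 of 545098 bins in the difference of animal 1 from animal 2, and the other 2 bins of the stretch, with 48.0% and 39.0% listed in animal 1 and 2.70% and 0% in animal 2, ranked 23 and 37. The Ighg1 bins, with 26.6%, 59.9%, 46.4% and 25.8% listed in animal 2 and 0% in animal 1, ranked 172, 34, 70 and 179 in the opposite difference, and the other 3 bins of that stretch had at most 0.24% listed in animal 2. Within the loci 94.3% of the 32-base words from Ighd to Ighj1 and 71.8% of those from Ighg1 to Ighg3 occurred once in the genome. Of these peaks, 30 of the 39 and 16 of the 30 were also in the shorter of the deposited peak lists. Of the plasma cell markers, 3 of 5 had a promoter peak in each animal. Sdc1 stood at 1.58 and 1.81, Prdm1 at 6.47 and 8.93, and Xbp1 at 11.3 and 13.2. Jchain and Tnfrsf17 were without one in both. All matched peaks also leaned to animal 2, with a median log2 ratio over animal 1 of 0.23. The 7 B cell markers were at a median of 9.36 and 8.96, and the part of cell makeup in this difference was not tested. Without these stretches the constant-region peaks were 2.89 and 4.03 times as high as V-region peaks.

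**Figure D2:**
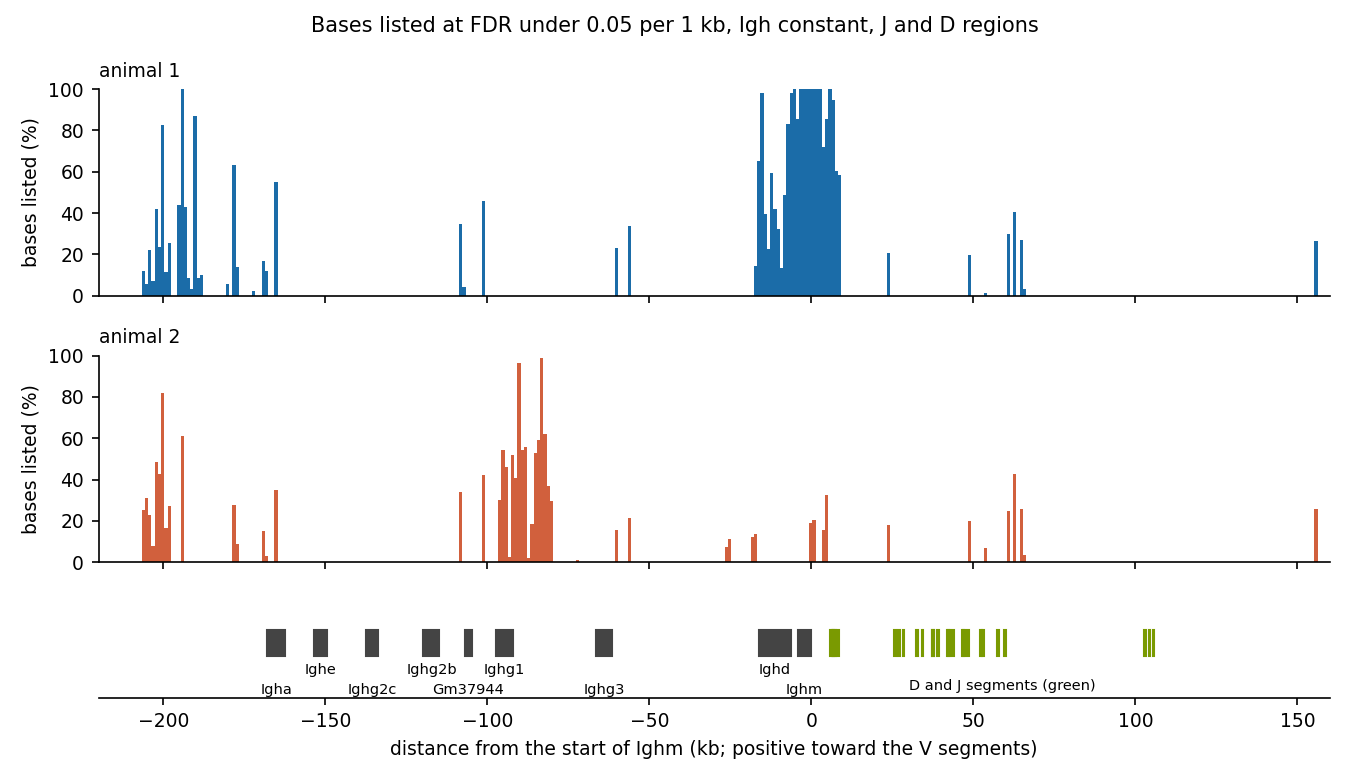
Share of bases in intervals listed at an FDR under 0.05, per 1 kb, along the Igh constant, J and D segments in each animal, by distance in kb from the start of Ighm, with segments drawn below. Animal 1 is filled from Ighd to the J segments and empty at Ighg1, animal 2 is filled at and upstream of Ighg1, and the cluster downstream of Igha is present in both.

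The D and J segments had few peaks apart from those in that stretch. In Igh the highest near a D or J segment was the Eμ-position site given above, then that upstream of Ighd1-1. In Igk the D/J class held 3 sites in each animal, those at chr6:70714341-70714540 and chr6:70716981-70717220 in the V-J interval and that at chr6:70724881-70725040 in the J-C intron. In Igl the site at Iglj3, chr16:19067041-19067240, stood at 3.35 and 3.27, and the one at Iglj1 at 1.59 and 1.30.

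V segments carried most of the Ig peaks but were mostly without one. A peak lay within 1 kb of the start of 117 (31.2%) and 92 (24.5%) of 375 V segments, a mean of 27.9% ± 4.71 (SD, n = 2), and 80 segments had one in both animals. The mean was 16.4% in the shorter list and 3.47% among peaks at or above the median height of their library. That window also covers the end of the short V exons. The share was 41.8% and 31.8% for V genes and 16.1% and 14.2% for V pseudogenes. Igh V genes were near each other in the 2 animals, at 37.4% and 38.3%, while Igk V genes were at 45.1% and 24.5%. T cell receptor V genes, counted the same way, were at 21.5% and 18.8%, but their sequence was less unique: a median of 41.9% of 32-base words occurred once, against 66.3% for Ig V genes. Most of them, 115 of 144, were Tra/Trd V genes, at 17.4% in both animals, while the 22 Trb V genes, with a median of 97.7% unique words, were at 36.4% and 27.3%. The median share of 32-base words that occur once was 71.6% around V genes with a peak and 63.1% around those without, and for V pseudogenes it was 68.5% and 78.4%. Over all V segments these opposite differences gave 70.9% and 70.7%. Among the larger families, Ighv1 had a peak at 30 and 29 of 93 segments and Igkv4 at 15 and 8 of 33, while Ighv3 had one at 0 of 8 in both.

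The V segments with the highest peaks were few. In Igh they were Ighv11-1 at 3.12 and 5.09, the pseudogene Ighv4-2 at 2.18 and 4.18, Ighv14-2 at 2.21 and 1.94, the pseudogene Ighv1-65 at 1.20 and 1.64, and Ighv11-2 at 1.12 and 1.34. Ighv11 is a family known from B-1 cells. In Igk they were Igkv2-137 at 5.01 and 3.73, Igkv2-109 at 3.63 and 1.51, the pseudogenes Igkv1-108 at 1.63 and 0.842 and Igkv13-82 at 1.37 and 1.03, and Igkv4-51 at 1.40 and 0.930. In Igl Iglv3 stood at 2.00 and 1.42. All 5 Igk segments and Iglv3 were higher in animal 1, and 4 of the 5 Igh segments were higher in animal 2.

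Where a peak lay on the V segment differed between the loci. In Igh, 45 and 43 peaks (51.7% and 45.3% of V-region peaks) had their midpoint within 150 bp of the V segment's end, at a median of 27 and 51 bp past it, and 2 and 1 lay in the 300 bp upstream of a start. In Igk, 38 and 21 lay within 150 bp of an end and 27 and 13 in the 300 bp upstream of a start, at a median of 72 and 59 bp upstream. These windows were set after the positions were seen. The recombination signal heptamer, which begins right after a V segment's last codons, was in 66.7% and 60.5% of the Igh peaks at V ends and in 63.2% and 52.4% of the Igk ones, against 4.94% and 4.82% of all peaks. The position near the end is where that heptamer lies by definition, so its share describes the position. The PU.1 core was in 47.4% and 23.8% of the Igk peaks at V ends, against 21.4% and 19.3% of all peaks.

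**Figure D3:**
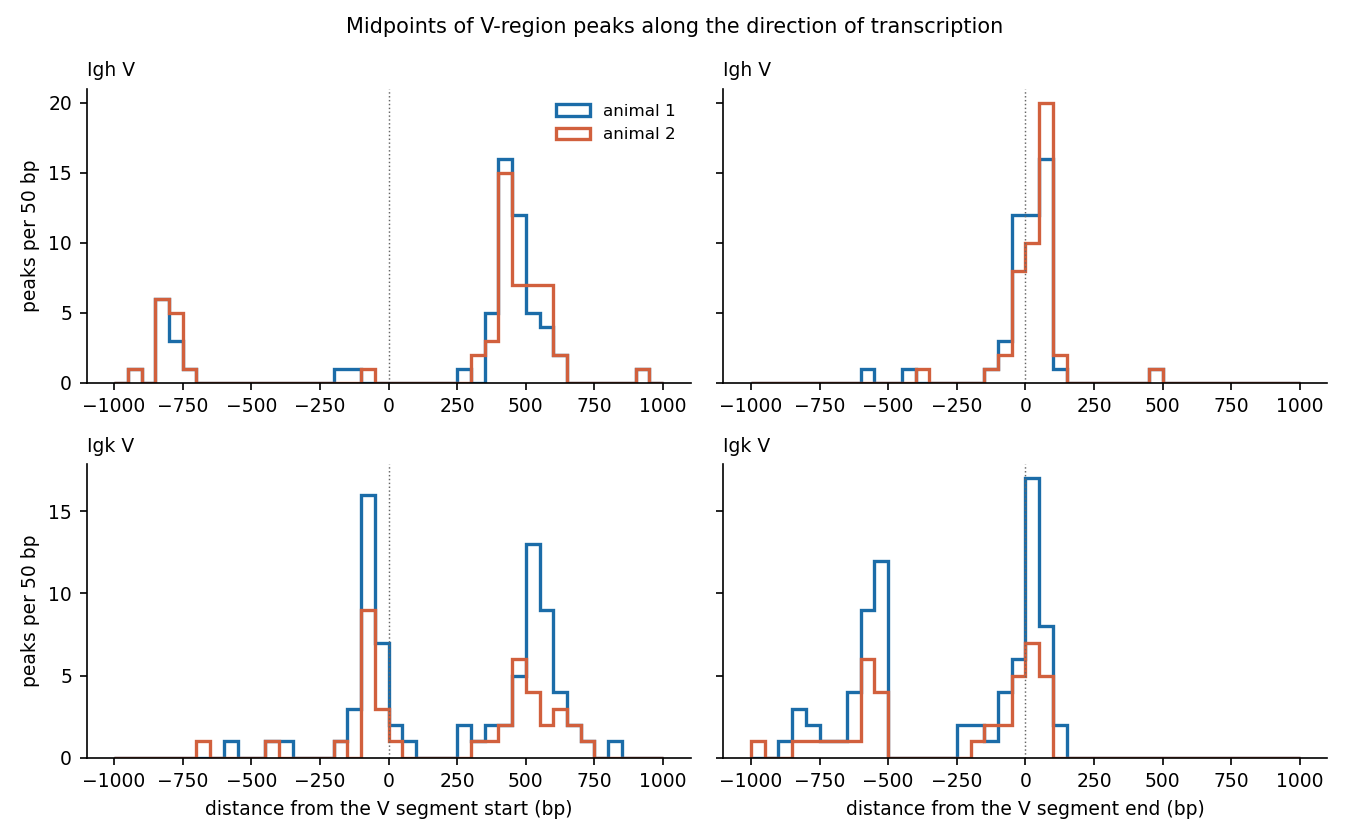
Midpoints of V-region peaks per 50 bp, along transcription, from the start (left) and the end (right) of the V segment for Igh (top) and Igk (bottom), animal 1 and animal 2. Both loci pile up at the V end, Igk also just upstream of the start, and Igh again at about 790 bp upstream.

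Peaks in the 300 bp upstream of a V start, and the octamer in them, were mostly in Igk. Of these Igk peaks, 23 of 27 (85.2%) and 12 of 13 (92.3%) held the octamer, against 1.49% and 1.16% of all peaks. Igh had 2 and 1 such peaks, 1 and 0 of them with it. Most V genes have an octamer in that range, so the share in part describes the position. Within 300 bp upstream, 90 of 115 Igh V genes had an octamer, at a median of 100 bp, and it lay in a peak at 1 in animal 1 and 0 in animal 2. In Igk 73 of 102 V genes had one, at a median of 84 bp. It lay in a peak at 21 and 12, and overlapped a footprint at 8 and 5. Over these 300 bp the median share of 32-base words occurring once was 76.6% in Igh V genes and 65.1% in Igk V genes. In both animals a footprint overlapped the octamer of Igkv2-112, with peaks of 1.12 and 0.414, Igkv2-109, at 3.63 and 1.51, and Igkv15-103, at 1.18 and 1.14. Across the widened loci most octamers lay outside any peak: 33 and 19 of 557 in Igk were in one and 7 and 3 of 533 in Igh.

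The CTCF consensus showed the opposite split. In Igh it was in all 11 and all 13 peaks that lay between 300 bp and 1 kb upstream of a V start. Every one was at an Ighv1 segment, and the share over all peaks was 6.69% and 6.92%. The E-box was in 63.6% and 69.2% of these Igh peaks, against 14.7% and 15.9% of all peaks. Of 93 Ighv1 segments, 13 had the consensus in that range, 734 to 963 bp upstream, and 11 and 13 of these lay in a peak, between 0.208 and 1.20 high in animal 1 and between 0.210 and 1.64 in animal 2. A footprint overlapped it at 5 and 12. Past the V end, 19 of 196 Igh segments had the consensus within 150 bp, all 56 to 64 bp from the end: 9 of 22 Ighv5, 7 of 11 Ighv2, 2 of 2 Ighv4 and 1 of 8 Ighv3. Of these, 8 and 12 lay in a peak, the highest at Ighv4-2 with 2.18 and 4.18. All 13 upstream and all 19 past the end ran along the direction of transcription. Igk had 0 of 176 V segments with the consensus on either side. Over the widened loci, 31 and 39 of 59 matches in Igh lay in a peak, 2 and 2 of 4 in Igk, and 1 and 1 of 2 in Igl.

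**Figure D4:**
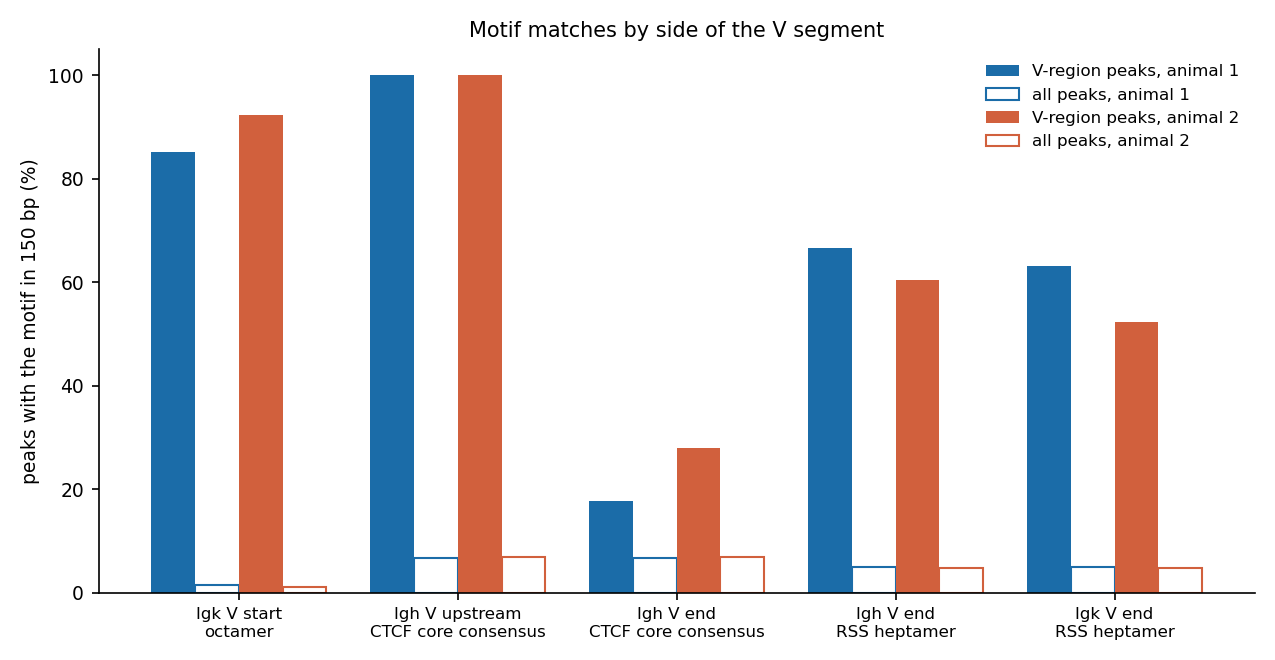
Share of V-region peaks (filled bars) and of all peaks (open bars) that hold the named motif in 150 bp around the midpoint, in percent, for each animal and side of the V segment. Filled bars reach 85.2% and 92.3% for the octamer at Igk V starts and 100% for the CTCF consensus upstream of Igh V segments, where open bars stay under 10%.

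V-region peaks over 1 kb from their segment numbered 28 and 37 in Igh and 41 and 31 in Igk. In Igh 32.1% and 29.7% of them held the CTCF consensus, and 42.9% and 45.9% held the E-box. Ighv1 segments were the nearest to 16 and 21 of these Igh peaks, of which 7 and 9 held the consensus. Ighv8 segments were the nearest to 8 in each animal, of which 1 and 1 held it. The highest peak of all the regions, 12.5 and 17.7 at chr12:116047561-116047760, lay in the 50 kb flank of Igh at the promoter of Zfp386, a zinc finger gene that is no Ig segment.

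Sharing between the animals was lower than over all peaks. A peak overlapped one of the other animal for 57.4% of Ig peaks in animal 1 and 71.3% in animal 2, against 76.5% and 79% of all peaks. Peaks of the same height deciles over the genome were shared at 61.3% and 59.96%, so Ig peaks stood under that share in animal 1 and over it in animal 2. By class, 63.1% and 79.9% of V-region peaks were shared, against 54.8% and 58.7% of peaks of the same height deciles. For D/J peaks the shares were 63.6% and 87.5%, against 72.6% and 73.2%. For constant-region peaks, where the stretches of Ighd, Ighm and Ighg1 lie, they were 42.0% and 48.7%, against 74.5% and 59.9%. Leaving out the peaks from Ighd to Ighj1 and from Ighg1 to Ighg3 gave 63.9% and 80.2% of Ig peaks shared. That alternative was chosen after seeing the data. Of the 392 sites 186 (47.4%) had a peak in both, 132 in animal 1 only and 74 in animal 2 only. The surplus of animal 1 was in Igk, with 62 sites against 12, and in Igl, with 12 against 4, while Igh had 58 against 58. The shorter deposited list held 59.9% and 57.5% of the Ig peaks, against 68.5% and 66.9% of all peaks.

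Heights of the 186 shared sites, as a log2 ratio of animal 2 over animal 1, had a median of 0.05, against 0.23 over 58277 matched peaks. The median was 0.23 for Igh (n = 99), -0.10 for Igk (n = 69) and -0.34 for Igl (n = 18), so the light-chain loci leaned to animal 1 and Igh did not. Called differences were over 2-fold from the median ratio of all peaks. Of the Ig sites 4 were above it, all in Igh V regions, and 16 below it, 10 in Igk, 4 in Igl and 2 in Igh, against 0.436% and 1.51% of all matched peaks. Those above were led by the sites nearest to Ighv10-2 at 0.394 and 1.36, Ighv1-69 at 0.236 and 0.699, and Ighv8-3 at 0.308 and 0.801. Those below were led by Igkv2-112 at 1.12 and 0.414, the site 4341 bp upstream of Iglv3 at 2.47 and 0.991, and the site 2592 bp upstream of Iglv2 at 1.97 and 0.794. With 1 value per animal these are descriptions of 2 libraries.

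**Figure D5:**
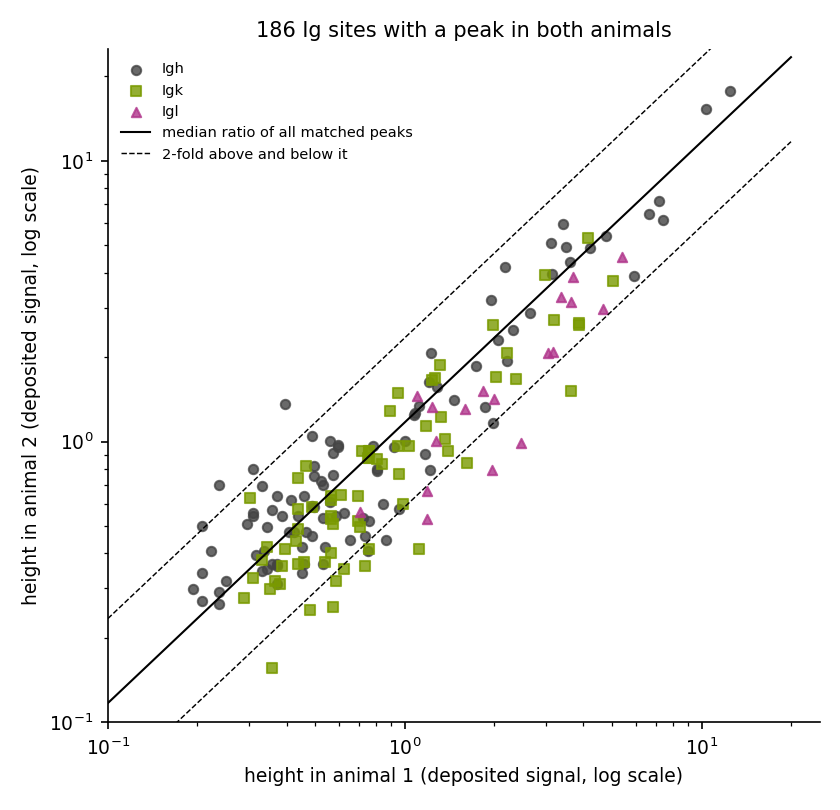
Heights of the 186 Ig sites with a peak in both animals, animal 1 against animal 2 on log axes, with the median ratio of all matched peaks (solid line) and 2-fold either side (dashed). Igl and many Igk sites lie below the solid line, and the 4 sites above the upper dashed line are in Igh.

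Footprints were set beside those of peaks of like height. Of the Ig peaks 78.4% and 77.0% held a footprint midpoint, against 81.4% and 83.5% of all peaks and 69.9% and 70.4% of peaks of the same height deciles. The Ig peaks held 592 and 448 distinct footprints, 90.7% and 89.4% of those in the widened loci, with a median width of 9 and 11 bp. Summed over peaks, with a footprint in overlapping peaks counted for each of them, the Ig peaks held 606 and 448 footprints. By that count the stretch from Ighd to Ighj1 held 117 in animal 1 and 8 in animal 2.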

How the data were processed

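DNase-seq libraries of 2 spleens were used. The authors deposited, per library, 2 peak lists, footprints and cut-rate intervals, each made from that library on mm10 per the file headers. For the aligner and callers, names and settings were not given in the sources used here. Peak height is a signal that the authors deposited without naming its unit; every height is a whole multiple of 0.00716 in animal 1 and 0.00679 in animal 2, which would be 139.6 and 147.3 M cuts if it is cuts per M. Depth is thus inferred, and no counting error is given. The deposited cut-rate files give an FDR (a q-value) and list only intervals under 0.05. The deposited footprints carry a constant 0.01 as their p-value and were not ranked.

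The longer peak list was used. Peaks were assigned by midpoint to the nearest V, D/J or constant segment of GENCODE M21, sites were merged by overlap of 1 bp or more, and matched peaks are 1 to 1. Python 3.11.15, numpy 2.4.6 and pandas 2.3.3 were used, and the counting steps were tested on simulated data. Unique 32-base words were counted in GRCm38.p6. In each window between segments the shared peaks were named, led by the 3 highest; likewise every constant segment, up to 5 V segments and 3 D/J peaks per locus, the highest peak of 1 animal only, and up to 3 sites per direction past 2-fold. Members, lists and motifs were chosen with earlier results of these data known.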

Additional observations from a re-analysis of the deposited data

How the results depend on the processing

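No paired analysis was possible because both libraries belong to 1 group. The count of Ig peaks, 292.5 on average, was 172.5 in the shorter list and 74 among peaks at or above the median height of their library. The share found in the other animal rose to 82.3% among those higher peaks, from 67.8% in animal 1 and 96.7% in animal 2. For this share and the footprint share below, the value over all peaks of that height is not given. V segments with a peak near their start went from 27.9% to 16.4% in the shorter list, 3.47% among the higher peaks, 21.5% within 500 bp and 36.8% without pseudogenes. The share of Ig peaks with a footprint, 77.7%, was 91.0% in the shorter list, 96.1% among the higher peaks, 76.5% without widening the loci and 80.7% without the stretches from Ighd to Ighj1 and from Ighg1 to Ighg3. Leaving these out, an alternative chosen after seeing the data, moved the height of constant-region over V-region peaks from 1.62 to 3.46; without widening the loci that ratio was 1.81 in animal 1 but 0.452 in animal 2. Leaving out either animal gave 261 to 324 peaks, 57.4% to 71.3% found in the other, 24.5% to 31.2% of V segments, a ratio of 1.26 to 1.98 and 77.0% to 78.4% with a footprint. Among peaks at or above the median height, 9 of 39 stayed between Ighd and Ighj1 and 0 of 30 between Ighg1 and Ighg3, the latter being at the low end of what was called. The median log2 ratio kept its sign under every alternative tried, and no mean value reversed.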
